A study of Mus musculus with 6 samples.

Results

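BAF complexes are the mammalian SWI/SNF chromatin remodelers, and 10 genes encoding their core subunits were examined in mouse embryonic fibroblasts (MEFs), among 25043 genes matched to the deposited RNA-Seq table. The genes were picked by name: *Smarca4* and *Smarca2* for the ATPases, *Arid1a* and *Arid1b* for the large DNA-binding subunits, and *Smarcc1*, *Smarcc2*, *Smarcb1*, *Smarce1*, *Smarcd1* and *Smarcd3* for the core. Each gene was represented by whichever of its listed transcripts had the highest mean. All 10 reached a mean of 10 normalized counts or more.

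The study asked how loss of ANP32E, a chaperone that takes the histone variant H2A.Z out of chromatin, alters chromatin state and gene expression. RNA was sequenced from 3 WT and 3 Anp32e-/- cultures of primary MEFs, which came from WT and Anp32e-/- embryos donated by another laboratory and differed in no other stated allele or treatment. Cells of both genotypes were below passage 8, grew in medium with 10% fetal bovine serum and antibiotics, and were plated at about 200000 per dish on the day before RNA was isolated. Sources used here do not say whether the 3 cultures of a genotype came from separate embryos.

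BAF complexes use the energy of ATP to slide or evict nucleosomes, and so open enhancers and promoters to transcription factors. A catalytic ATPase, either BRG1 (*Smarca4*) or BRM (*Smarca2*), is joined to a base built around SMARCC proteins, and several positions of the complex can be filled by alternative paralogs, so the relative amounts of paralogs set which assemblies a cell can make. In fibroblasts BAF is known to be brought to enhancers by AP-1 factors.

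The values are means over all 6 libraries of read counts that the authors divided by library size factors, termed normalized counts below. A mean mixes both genotypes and carries no spread between cultures. The table's other columns, the authors' comparison of the genotypes, were left out, so levels in WT and in Anp32e-/- cells and their difference are not given here. To compare genes, a mean was divided by the length of the spliced transcript, which gives normalized counts per kb. Intervals are exact 95% Poisson intervals that take the reads behind a mean as independent. They cover counting error only, not the variation between cultures. The size factors, read from the means of transcripts with a single read, ran from 0.909 to 1.13, so relative depth varied little among the libraries, and the gene means added up to 51227465 normalized counts.

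*Anp32e*, the targeted gene, had a mean of 2190 normalized counts, or 1586 per kb. With WT and Anp32e-/- libraries in 1 mean, this value does not check the genotype labels. The genes of H2A.Z lay at 17860 normalized counts per kb for *H2afz* and 1476 per kb for *H2afv*.

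The label of the cells was compared with marker genes. Of 13 fibroblast markers, 12 reached a mean of 10, and the highest level was that of *Vim*, the intermediate filament vimentin, at 150796 normalized counts per kb. *Lum*, for the matrix proteoglycan lumican, had a mean of 1.33 normalized counts. Per kb, 3 of the 13 lay below the median gene, *Lum*, *Pdgfra* at 91.9 and *Dcn* at 81.8, named after their values were seen. The 13 means summed to 491558 normalized counts, 67.3% of it from *Vim*, against 253 for 7 epithelial, 3003 for 6 endothelial, 302 for 6 macrophage, 70.6 for 6 skeletal muscle, 1034 for 6 neuronal and 16.0 for 6 pluripotency markers. In each of the other lists 1 gene also gave most of the sum, from 65.4% for *Cldn3* among the epithelial to 98.5% for *Kdr*, a VEGF receptor with a mean of 2958, among the endothelial markers. The leading genes of the remaining lists were *Cd68* at 209 normalized counts per kb for macrophages, *Ttn* at 0.673 for skeletal muscle, *Tubb3* at 395 for neurons and *Nanog* at 5.22 for pluripotency. Of these markers of other cell types, *Kdr* at 499 per kb and *Tubb3* lay above the median gene. *Cd68*, the neuronal marker *Stmn2* at 139 per kb and *Cldn3* at 131 lay below it. All of these, from *Kdr* to *Cldn3*, lay above *Pdgfra* and *Dcn*. *Emcn* was listed at 0, as were *Esrp1*, *Tyrobp*, *Myod1*, *Snap25*, *Zfp42* and *Lin28a* in the other lists. In such bulk samples, fewer cells of a type and less RNA per cell cannot be told apart.

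The BAF subunit genes covered a 37.2-fold range of levels per kb of spliced transcript, and a 20.5-fold range in means without division by length. Per kb *Smarcb1* was highest, without division by length *Smarca4* was, and on both scales *Smarca2* was lowest. The 10 genes had a median of 1214 normalized counts per kb. For all 16164 autosomal genes with a transcript model and a mean of 1 or more it was 220.1 per kb. Of the 10 genes, 8 lay above that median of all genes, and *Arid1a* and *Smarca2* lay below it. From highest to lowest the order was *Smarcb1*, *Smarca4*, *Smarcc2*, *Smarcc1*, *Smarce1*, *Smarcd3*, *Smarcd1*, *Arid1b*, *Arid1a* and *Smarca2*. This order depended on the scale, with 7 of the 10 genes in the same place per kb of coding sequence and 3 in means without division by length. Per kb of coding sequence *Smarce1* came next after *Smarcb1*, at 3183 normalized counts, above *Smarca4* at 2994, *Smarcc1* at 2562 and *Smarcc2* at 2185. No neighbours in the order per kb of spliced transcript had overlapping counting intervals, the closest being *Smarcc1* at 1.10 times *Smarce1*, but without values per culture it is unknown which of these steps exceed the spread between cultures.

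**Figure D1:**
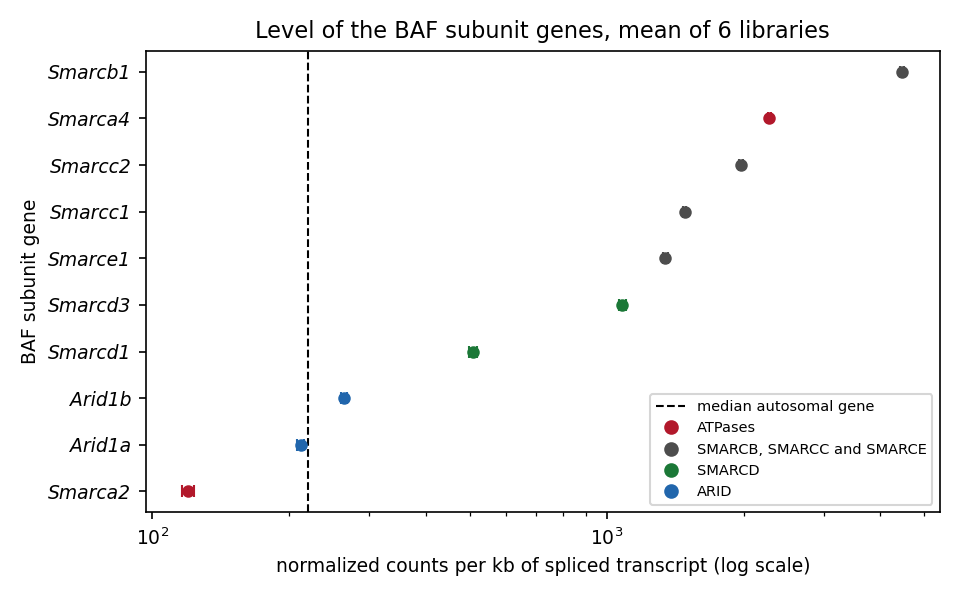
Level of each BAF subunit gene in normalized counts per kb of spliced transcript (log scale), as the mean of 6 libraries of WT and Anp32e-/- MEFs. Horizontal bars are exact 95% Poisson intervals for counting error alone, most of them narrower than the points, and the dashed line is the median autosomal gene at 220.1 per kb; *Smarcb1* is highest at 4459 and *Smarca2* lowest at 119.9.

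The ATPase genes stood near opposite ends of this order. *Smarca4* encodes BRG1, the ATPase needed in early mouse development. It is on chromosome 9 of GRCm38 (chr9:21616169-21704230, plus strand), where its modelled transcript has 34 exons and 6376 bases. Its mean of 14534 normalized counts was the highest of the 10 genes. Per kb its level was 2278 normalized counts (2263 to 2293), at percentile 89.0 of autosomal genes. The transcript with that highest mean has no matching model, so the level per kb was taken from the next transcript, with a mean of 14525.

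*Smarca2* encodes BRM, the alternative ATPase, which is best known from differentiated and quiescent cells. It spans chr19:26605052-26778321 on the plus strand, and its long transcript has 33 exons and 5921 bases, close to the length of that of *Smarca4*. Its mean was 710.0 normalized counts, the lowest of the members. By mean without division by length *Smarca2* was at percentile 51.1, just above the median gene. Per kb its level was 119.9 normalized counts (116 to 124), at percentile 41.5 and 0.545 times the level of the median gene. *Smarca4* was therefore 19.0 times as high per kb as *Smarca2* (18.4 to 19.6 by exact Clopper-Pearson limits on the split of reads), and made up 95.0% of the summed level of both ATPase genes. The size of this ratio rested on the transcripts used. With the transcript highest per kb it was 11.2 when both genes were changed, to 2687 per kb for *Smarca4* and 241 for a short transcript of *Smarca2*, 9.47 when *Smarca2* alone was changed and 22.4 when *Smarca4* alone was. The *Smarca4* transcript of 2687 per kb has 5405 bases. The 971 further bases of the modelled one added 0.324 normalized counts to the mean. Another *Smarca4* transcript, of 6354 bases, has 949 bases more than the one of 5405, and their means were identical. The further bases thus held almost no reads that missed the shared bases, yet the modelled length includes them. With 5405 bases for *Smarca4* alone the ratio is the 22.4 given above, outside the limits of 18.4 to 19.6. Which length fits the counted *Smarca4* transcripts was not tested, so it is uncertain too.

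Promoter sequences of the ATPase genes are shown because these paralogs differed most. Each run is the part of the RefSeq promoter window (GRCm38.p6, 250 bases before to 50 after the annotated start) that lies upstream of all annotated transcripts of the gene. Capitals mark the GC box, the letters GGGCGG on either strand, which SP1-type factors can bind. The first lies at chr9:21615919-21616105 and the next at chr19:26604910-26605049, both on the plus strand and written 5′ to 3′.

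Smarca4: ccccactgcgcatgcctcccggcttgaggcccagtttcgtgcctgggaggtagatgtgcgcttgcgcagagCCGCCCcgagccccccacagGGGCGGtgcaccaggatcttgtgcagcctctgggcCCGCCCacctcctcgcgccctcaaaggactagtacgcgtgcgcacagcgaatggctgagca

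Smarca2: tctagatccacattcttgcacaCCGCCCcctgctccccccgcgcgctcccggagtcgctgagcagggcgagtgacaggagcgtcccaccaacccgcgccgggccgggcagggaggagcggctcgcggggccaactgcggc

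The *Smarca4* stretch of 187 bases held 3 GC boxes and the shorter *Smarca2* stretch of 140 bases held 1, while the full windows of 300 bases held 3 and 2. Neither held CCAAT, on either strand, the letters that NF-Y binds. Windows were available for 9 of the 10 BAF genes, with *Smarce1* not matched and *Arid1a* having 2 windows. All 10 windows of 300 bases held a GC box, as did 46.2% of 21263 windows of protein-coding genes and 82.6% of the 7689 with a GC content inside the range of the BAF windows, 60.7% to 81.0%. None of the 10 held CCAAT, which was found in 38.2% of all those windows and in 32.4% of those in the same GC range. The BAF windows had 22 to 48 CpG dinucleotides, with a median of 34, beside a median of 13 for all windows and 27 in that GC range. *Smarca4* had 33 and *Smarca2* 29. A match is a description of letters and not evidence of a bound site.

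*Smarca2* was also the gene whose listed transcripts differed most. A short transcript starts inside the gene, at position 26748403, and has 9 exons and 1962 bases. It shares sequence with the last 6 exons of the long transcript, 1689 bases in all, and leaves 27 exons and 4232 bases to the long transcript alone. The mean of the short transcript was 472 normalized counts, 66.5% of the mean of the long one, although the shared bases make up 28.5% of the long transcript. By subtraction, at least 238 normalized counts came from reads that touched the long transcript and not the short one. Spread over the 4232 bases that only the long transcript has, these amount to 56.2 normalized counts per kb as a lower bound, while at most 279 per kb fell on the shared 3′ part, an upper bound because reads on the 3 exons of the short transcript's own may be among the 472. Another listed transcript, without a model, had a mean of 467. When the transcript with the highest level per kb stood for each gene, the short transcript raised *Smarca2* to 241 normalized counts per kb, above *Arid1a* at 212. That level also exceeds the 220.1 per kb of the median gene, a median taken with the main choice of transcripts.

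In the other genes with several listed transcripts the means were close. The 4 transcripts of *Smarca4* ran from 14524 to 14534 normalized counts, and 2 of them had identical means. The 2 transcripts of *Smarcb1* had means of 7402 and 7400.5. For *Smarcc2* the 3 means were 7950.3, 7780.3 and 7772, and for *Arid1a* the lower of 2 means was 95.8% of the higher. Near-equal means in transcripts that share most exons show that reads were counted on each transcript they overlapped, which is not featureCounts' default for features kept apart, so these values are not amounts of separate isoforms. The remaining 5 genes had 1 listed transcript each.

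**Figure D2:**
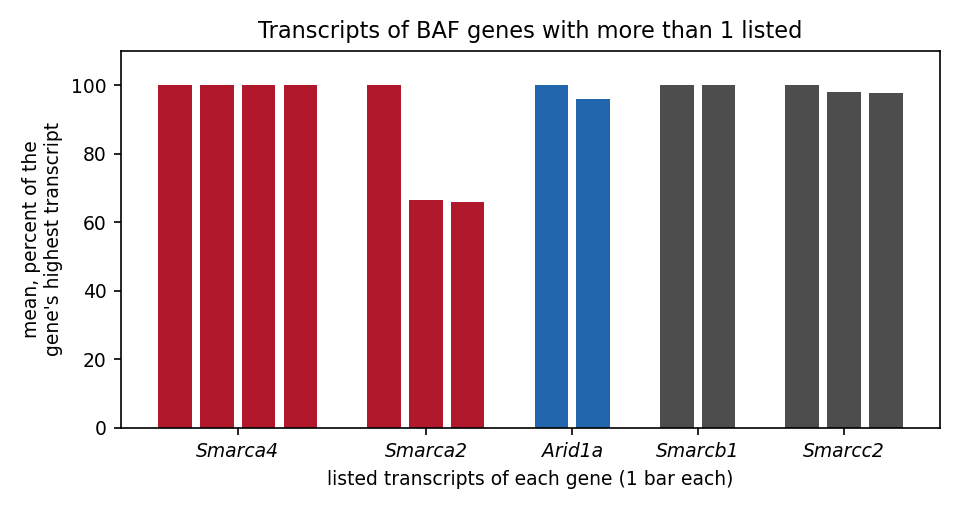
Mean of each listed transcript as a percent of the highest mean of its gene, 1 bar per transcript, for the 5 BAF subunit genes with several listed transcripts (mean of 6 libraries, no error bars because transcripts share reads). The other transcripts of *Smarca2* reach 66.5% and 65.8%, and every bar of the other genes is at 95.8% or more.

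The ARID subunits set a BAF complex apart from the related PBAF and bind DNA without strong sequence preference. *Arid1a*, a gene often mutated in cancer, lies at chr4:133679008-133753611 on the minus strand, and its transcript has 20 exons and 8175 bases. *Arid1b*, its paralog and a gene of intellectual disability syndromes, lies at chr17:4995074-5347656 on the plus strand, with 20 exons and the longest transcript of the 10 genes, 11325 bases. The mean of *Arid1a* was 1734 normalized counts and its level 212 per kb (208 to 216), at percentile 49.4. *Arid1b* had a mean of 2995 normalized counts and a level of 264 per kb (261 to 268), at percentile 52.9. *Arid1b* was thus 1.25 times as high as *Arid1a* per kb (1.22 to 1.28) and held 55.5% of their sum.

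Both ARID genes sat close to the median gene per kb, and their place depended on the scale. Ranked by mean without division by length, *Arid1a* was at percentile 67.4 and *Arid1b* at percentile 78.7. The summed level of both genes, 477 normalized counts per kb, was below that of the ATPase pair at 2398, of the SMARCC pair at 3456 and of *Smarcb1* alone.

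The SMARCC proteins form the scaffold on which the complex is assembled. *Smarcc1* encodes BAF155 and lies at chr9:110131980-110240178 on the plus strand, with 28 exons and 5717 bases of transcript. *Smarcc2* encodes BAF170 and lies at chr10:128459321-128489356 on the plus strand, with 28 exons and 4032 bases. *Smarcc1* had a mean of 8485 normalized counts and 1484 per kb (1471 to 1497), at percentile 83.6. For *Smarcc2* the mean was 7950.3 normalized counts and the level 1972 per kb (1954 to 1990), at percentile 87.3. Per kb of spliced transcript *Smarcc1* was 0.753 times *Smarcc2* (0.743 to 0.762). The order of this pair turned with the scale, since *Smarcc1* was 1.07 times *Smarcc2* in means without division by length and 1.17 times per kb of coding sequence. The coding sequence is 57.9% of the modelled *Smarcc1* transcript and 90.3% of that of *Smarcc2*. Across all the scales tried, the ratio of the pair ran from 0.753 to 1.17, and that of the ATPase pair from 9.47 to 22.4.

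*Smarcb1* encodes SNF5, the subunit lost in rhabdoid tumours, which contacts the acidic patch of the nucleosome. It lies at chr10:75896769-75921617 on the minus strand, with 9 exons and 1660 bases, the shortest transcript of the 10 genes. Its mean of 7402 normalized counts was the fourth highest, and its level of 4459 per kb (4418 to 4501) the highest, at percentile 94.4 and 20.3 times the median gene. Per kb it was 1.96 times as high as *Smarca4*, and without division by length *Smarca4* was higher. *Smarce1* encodes BAF57, a subunit with an HMG domain that binds DNA. It lies at chr11:99209047-99231017 on the minus strand, with 11 exons and 2919 bases. Its mean was 3925 normalized counts and its level 1345 per kb (1327 to 1362), at percentile 82.2. GENCODE lists a processed pseudogene, *Smarce1-ps1*, on chromosome 8, and how reads shared with it were counted is unknown, so the *Smarce1* value is uncertain by that amount.

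SMARCD proteins, the BAF60 subunits, link the complex to transcription factors and nuclear receptors. *Smarcd1* lies at chr15:99702129-99713991 on the plus strand and had a mean of 1678 normalized counts, or 507 per kb (498 to 517), at percentile 64.7. *Smarcd3*, whose product takes part in heart and skeletal muscle development, lies at chr5:24592622-24602012 on the minus strand and had a mean of 1879, or 1083 per kb (1063 to 1103), at percentile 78.6. Each has 13 exons, in 3307 bases for *Smarcd1* and 1735 for *Smarcd3*. Per kb *Smarcd3* was 2.13 times *Smarcd1* (2.08 to 2.19), a ratio of 1.12 in means without division by length.

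The *Smarcd3* value has a limit of its own. Of its transcript, 642 bases (37.0%) lie opposite exons of *Chpf2*, a chondroitin sulfate synthesis gene with a mean of 4338 normalized counts. The library kit keeps strand. The study's methods name the default setting for its expression analysis, and default featureCounts counting does not use strand. Where strand was not used, the reads of both genes cannot be told apart over those bases. Exons of the opposite strand also cover 470 bases of *Smarcd1*, from the unnamed genes *Gm17349* and *Gm34939*, and 6 bases of *Smarca2*. The other 7 genes overlapped no exon of another GENCODE gene, on either strand.

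*Smarcd2*, the remaining paralog of this position, had a mean of 4013 normalized counts and 1461 per kb. It was 1.35 times as high per kb as *Smarcd3* (1.32 to 1.38) and 2.88 times as high as *Smarcd1* (2.81 to 2.95). *Smarcd2* held 47.9% of the summed level of the 3 SMARCD genes. The order *Smarcd2*, *Smarcd3*, *Smarcd1* was the same per kb of coding sequence and in means without division by length. Each of these scales takes the same *Smarcd3* mean, so none of them removes the overlap with *Chpf2*.

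**Figure D3:**
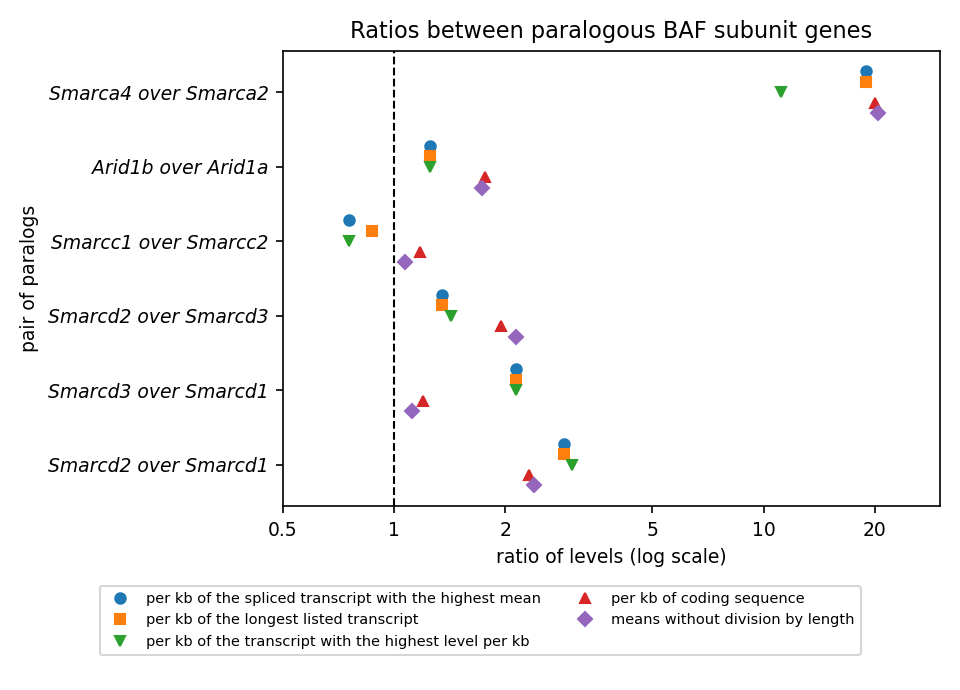
Ratio of the levels of paralogous BAF subunit genes (log scale, dashed line at 1) on 5 scales, from means over 6 libraries. *Smarca4* over *Smarca2* lies between 19.0 and 20.5 on 4 scales and at 11.2 with the transcript of the highest level per kb, and *Smarcc1* over *Smarcc2* falls on both sides of 1, from 0.753 to 1.17.

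Levels were also summed per position of the complex. The sums were 4459 normalized counts per kb for *Smarcb1*, 3456 for the SMARCC pair, 3051 for the SMARCD genes with *Smarcd2*, 2398 for the ATPases, 1345 for *Smarce1* and 477 for the ARID pair. Per kb of coding sequence *Smarce1*, at 3183, was above the ATPase sum of 3144, and the SMARCD genes at 4902 were above the SMARCC pair at 4747. Means without division by length gave another order, with 16435 normalized counts for the SMARCC pair, 15244 for the ATPases, 7569.8 for the SMARCD genes, 7402 for *Smarcb1*, 4729 for the ARID pair and 3925 for *Smarce1*. RNA levels say nothing of the amounts of protein, and the number of copies of each subunit in a complex was not considered in these sums.

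Set against all autosomal genes, the median percentile of the BAF genes was 80.4 per kb, with a lowest value of 41.5 and a highest of 94.4. By mean without division by length the median percentile was 81.1. The transcripts of the BAF genes were long, with a median of 4874.5 bases beside 2699 for all genes, and 8 of 10 were longer than that median. This is a description of a list picked by name, and no test of its position was made.

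**Figure D4:**
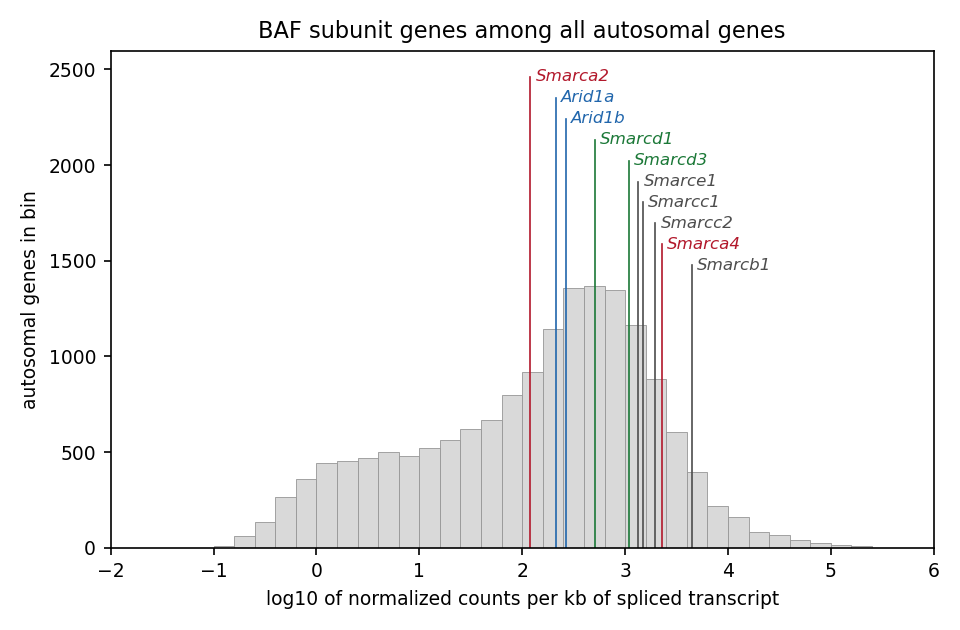
Histogram of autosomal genes by log10 of normalized counts per kb of spliced transcript (bins of 0.2, mean of 6 libraries, genes with a mean of 1 or more), with a line at the level of each BAF subunit gene. *Smarca2* and *Arid1a* lie below the median gene, *Arid1b* just above it, and the other 7 genes at percentile 64.7 or higher.

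A list of 21 other subunits of the BAF family held *Smarcd2*, a paralog of the members *Smarcd1* and *Smarcd3*. The rest covered variable and accessory positions, among them those of the related PBAF and non-canonical complexes. Of the 21, 17 reached a mean of 10 normalized counts, and 12 were above the median gene per kb. Their median was 376 normalized counts per kb, beside 1214 for the 10 member genes. The highest was *Actb*, whose actin is mainly cytoskeletal, at 645175 per kb, and the lowest *Actl6b*, a neuronal actin-like subunit listed at 0, where 3 counts over 6 libraries would give a mean of 0.5. The 4 below a mean of 10 were *Actl6b*, *Bcl11a* with a mean of 0.169, *Dpf3* with 1.28 and *Bcl11b* with 6.39, named after their values were seen; *Bcl11a* and *Bcl11b* encode zinc finger proteins of blood and brain, and *Dpf3* a PHD finger subunit of heart and neurons.

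Genes of the other remodeler families gave a setting for these levels. The median was 539 normalized counts per kb for 13 ISWI genes, 182 for 9 CHD genes and 870.0 for 12 genes of the INO80, SRCAP and p400 complexes, of which SRCAP and p400 put H2A.Z into chromatin. The highest of each family were *Rbbp7*, a histone-binding protein shared with other complexes, at 6407 per kb, *Chd4*, the NuRD ATPase, at 2841, and *Ruvbl2*, an AAA ATPase, at 5443. The lowest were *Cecr2* at 0.155 per kb, *Chd7* at 3.06 and *Actr6* at 225. *Smarca4* at 2278 per kb was thus below *Chd4*, and *Smarcb1* at 4459 lay below 3 genes of these lists, *Rbbp7*, *Ruvbl2* and *Rbbp4*, the last at 4512 and named after its value was seen.

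**Figure D5:**
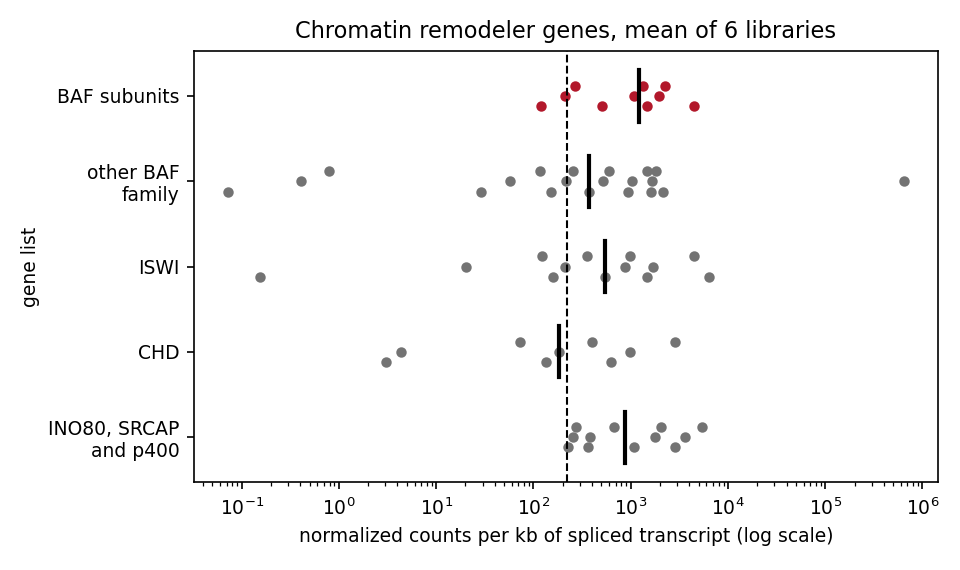
Level of each gene of 5 remodeler lists in normalized counts per kb (log scale, mean of 6 libraries), 1 point per gene with small vertical offsets for legibility; *Actl6b*, listed at 0, is not drawn. Thick bars are list medians and the dashed line is the median autosomal gene; the BAF subunit genes have a median of 1214 per kb and the other lists medians from 182 to 870.0.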

How the data were processed

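RNA-Seq libraries of 3 WT and 3 Anp32e-/- MEF cultures, grouped by their labels, were examined through 1 deposited table with a line per RefSeq transcript. Per the study's methods, the authors used RNA-STAR for alignment to mm10, and featureCounts of Subread and DESeq2, with the default setting, for expression. Default featureCounts counting ignores strand and leaves out reads on several features, but near-equal means of overlapping transcripts show that such reads were counted, so which options were at their default is unknown. The deposited signal column is the authors' mean over the 6 libraries of counts divided by size factors. The remaining columns hold the authors' comparison of the genotypes (log2 fold change, its standard error, a statistic, a p-value and an adjusted p-value) and were not used.

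A test of WT against Anp32e-/- had been planned for counts per library. No column of that kind was used, so no test was run, and all values are descriptions. Since the table has no values per library, total counts and SD are not given.

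Of 42361 transcripts, 42203 matched a gene of the RefSeq GRCm38.p6 table and 158 did not. Lengths and exons are those of GENCODE vM21 models (GRCm38) cross-referenced to a transcript, which were found for 16 of 19 BAF transcripts and for 97.6% of autosomal genes whose mean was 1 or more. A percentile is the percent of such genes with a lower level. Poisson intervals took 6 times the mean, rounded, as the reads behind it, which ignores the size factors. The libraries were sequenced from both ends, and whether the ends of a fragment were counted separately is unknown. If they were, these intervals and the limits on ratios are too narrow. Functions were tested on simulated data. Python 3.11.15, scipy 1.17.1, numpy 2.4.6 and matplotlib 3.10.9 were used.

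The members and lists were chosen with earlier results of these data known. Named genes are the 10 members, *Anp32e*, *H2afz*, *H2afv*, *Smarcd2* and the highest and lowest of each list; other names were chosen after their values were seen. Alternatives were another transcript per gene, coding or no length, and other gene filters.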

Additional observations from a re-analysis of the deposited data

How the results depend on the processing

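Among the 6 ratios of paralogs, that of *Smarcc1* to *Smarcc2* was the one that reversed. Their ratio of 0.753 per kb of spliced transcript became 1.07 without division by length and 1.17 per kb of coding sequence, and was 0.870 with the longest listed transcript of each gene. The last of these also takes another *Smarcc2* transcript, with its own mean.

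Other ratios kept their direction and moved in size, though no choice removes the overlap of *Smarcd3* with *Chpf2*. Without division by length, *Smarca4* over *Smarca2* was 20.5, *Arid1b* over *Arid1a* 1.73, *Smarcd2* over *Smarcd3* 2.14, *Smarcd3* over *Smarcd1* 1.12 and *Smarcd2* over *Smarcd1* 2.39. Per kb of coding sequence the same ratios were 20.03, 1.757, 1.94, 1.19 and 2.32. The longest listed transcript changed none of these 5. With the transcript of the highest level per kb, a choice made for ratios after seeing the data, *Smarca4* over *Smarca2* was 11.2 (9.47 with *Smarca2* alone changed and 22.4 with *Smarca4* alone), *Smarcd2* over *Smarcd3* 1.42 and *Smarcd2* over *Smarcd1* 3.04. In the order of the 10 genes, that choice put *Smarca2* above *Arid1a*, coding length put *Smarce1* above *Smarca4*, *Smarcc2* and *Smarcc1*, and means without division by length put *Smarca4*, *Smarcc1* and *Smarcc2* above *Smarcb1*, *Arid1b* above *Smarcd3* and *Smarcd1*, and *Arid1a* above *Smarcd1*. The median level of the 10 genes was 1741 per kb of coding sequence and 3460.0 without division by length, and the other choices of transcript left it as it was. The highest level was 37.2 times the lowest per kb, 42.9 times per kb of coding sequence, 20.5 times without division by length, 21.5 times with the transcript highest per kb and 25.03 times with the median over transcripts. The median percentile was 82.5 among genes with a mean above 0, 76.5 among those with a mean of at least 10, and 81.1 by mean without division by length, also a choice made after seeing the data.

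No paired analysis was possible because no values per library were used. For the same reason the planned edgeR comparison of WT with Anp32e-/-, its fit with a replicate block and its fits without each replicate were not run. By these intervals counting error was small, the widest spanning 6.03% of its level, for *Smarca2*. What limits the levels is the length assigned to each transcript, reads shared with overlapping or copied genes, and the unknown variation between cultures.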

Other observations

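The pooled mean held 2556 normalized counts of *Xist*, the RNA of the inactive X chromosome, and 551 of the Y-linked gene *Ddx3y*. How these divide between the WT and Anp32e-/- cultures was not examined here, and neither value was set against the BAF subunit genes.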
